A study of Mus musculus with 3 samples.

Results

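The genes described here are the STAT transcription factors Stat2, Stat3, Stat4, Stat5a, Stat5b and Stat6. They were taken by symbol from the gene list of the count tables and are 6 of the 31053 genes counted. Their mRNA was measured by droplet single-cell RNA sequencing in splenic CD4+ T cells of C57BL/6 mice, with 1 library for each of 3 groups. Unstimulated WT cells came from Ift20 f/f mice and are labelled as given DPBS. Stimulated WT cells had the same genotype and were cultured for 24 h with anti-CD3 and anti-CD28 antibodies, each at 1 μg/mL. Stimulated IFT20-KO cells came from Ift20 f/f CD4 cre mice and were cultured in the same way. All 3 groups therefore carried the floxed Ift20 allele, and the WT groups carried no Cre. Cre from the Cd4 promoter is active from the thymus onwards, so that the gene was lost before the cells were stimulated, and there was no unstimulated IFT20-KO library. All cells were enriched as naïve CD4+ T cells and sorted as 7AAD-CD3+CD4+ cells. The mice were male and 5 to 10 weeks old, per the methods of the study. How many mice contributed to each library is not given in the sources used here. The labels name a 5′ library kit, whereas the methods of the study name a 3′ kit.

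STAT proteins wait in the cytoplasm until a cytokine binds its receptor. Janus kinases on the receptor tails then phosphorylate them, and they pair, enter the nucleus and switch on target genes until SOCS proteins, phosphatases and other inhibitors stop the signal. In CD4+ T cells, STAT2 serves type I interferons together with IRF9, STAT3 serves IL-6, IL-21 and related cytokines, STAT4 serves IL-12 and the Th1 programme, STAT5A and STAT5B serve IL-2 and IL-7, and STAT6 serves IL-4 and the Th2 programme. The mRNA level of a STAT gene says how much message was present, not how much protein was phosphorylated, which was not measured.

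The genes lie in 3 places of the mouse genome (GRCm38, GENCODE M21 annotation). Stat5b (chr11:100780731-100850724, minus strand), Stat5a (chr11:100859351-100885169, plus strand) and Stat3 (chr11:100885098-100939540, minus strand) are neighbours. Stat5a and Stat5b start 8626 bases apart and point away from each other, and the annotated ends of Stat5a and Stat3 overlap on opposite strands. Stat6 (chr10:127642986-127660957, plus strand) and Stat2 (chr10:128270559-128292849, plus strand) share a chromosome, and Stat4 (chr1:51987148-52107189, plus strand) stands alone. Stat6 overlaps Nab2 on the opposite strand, and Nab2 itself stood at 47.0 UMIs per 1000000 UMIs (CPM) in unstimulated WT cells, 89.2 CPM in stimulated WT cells and 82.4 CPM in IFT20-KO cells. How the counting treated strand is not given in the sources used here, and whether it told reads from such overlaps apart was not tested. STAT5A and STAT5B are close paralogs. Of the stretches of 60 bases in protein-coding Stat5a transcripts, 12.3% also occurred in Stat5b, and 9.31% of those of Stat5b occurred in Stat5a. No other pair of the 6 genes shared such a stretch.

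The 250 bases before each annotated start were searched for 2 motifs, on both strands and with RefSeq sequences (GRCm38.p6), which gave 9 start sites for the 6 genes. The GAS motif bound by STAT dimers (TTCNNNGAA, a palindrome) was in none of the 9 windows, against 7.02% of 32851 windows of that length over all genes. The core of the interferon-stimulated response element, bound by the complex of STAT2 and IRF9 (GAAA, any 2 bases, GAAA), was in 1 window of Stat2 and in 1 of the 2 windows of Stat4, against 2.98% of all windows. These windows are shown because Stat2 was the member with the highest ratio between cells with and without interferon-induced genes, and Stat4 is the other member with the motif. Capitals mark the motif, which starts 222 bases before the start of Stat2 (chr10:128270248-128270497, plus strand, outside any annotated exon) and 97 bases before the second start of Stat4 (chr1:52007990-52008239, plus strand, intronic in the longer gene model). A match is a string of letters and not a measured binding site.
Stat2: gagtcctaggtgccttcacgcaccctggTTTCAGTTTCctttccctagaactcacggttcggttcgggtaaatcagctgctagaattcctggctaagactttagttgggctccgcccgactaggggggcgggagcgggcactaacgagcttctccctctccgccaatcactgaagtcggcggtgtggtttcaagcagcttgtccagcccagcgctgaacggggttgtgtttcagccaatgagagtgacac
Stat4: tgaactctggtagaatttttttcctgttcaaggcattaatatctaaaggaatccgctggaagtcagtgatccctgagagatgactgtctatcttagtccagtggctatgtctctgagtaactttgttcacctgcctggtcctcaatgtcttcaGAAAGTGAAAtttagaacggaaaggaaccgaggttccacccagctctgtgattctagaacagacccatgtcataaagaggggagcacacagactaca

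Of 8253, 10320 and 13932 barcodes in unstimulated cells and in WT and IFT20-KO cells after stimulation, 8031, 9903 and 13920 had more than 200 genes and under 15% mitochondrial UMIs (unique molecular identifiers, which count each captured mRNA molecule once). Median UMIs per cell were 4627, 12167 and 5014.5. Ift20, the targeted gene, stood at 64.4 and 76.0 CPM in the WT libraries and at 6.60 CPM in the IFT20-KO library. All 7 T cell markers were seen in 57.5% to 94.6% of cells, whereas Cd79a, Cd79b, Ms4a1 and Iglc2, on the B cell list, were seen in at most 1.05% of cells and all myeloid, dendritic and natural killer cell markers in at most 3.03%. Ighm, also on the B cell list, was seen in 49.3% to 61.8% of cells, and Cd8b1 in 6.80% to 10.8% while Cd8a was seen in at most 0.208%. The libraries shared 125 to 207 barcode sequences in pairs, and no doublets were removed. With 1 library per group no difference between groups could be tested, and every interval below is a 95% interval for counting error only.

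Stat3 was the most abundant STAT mRNA in both WT libraries and Stat2 the least abundant in all 3. In unstimulated WT cells, Stat3 stood at 141.1 CPM (interval 137.3 to 145.0) and was followed by Stat6, Stat4, Stat5b, Stat5a and Stat2. Stimulated WT cells had the same order except that Stat5a stood above Stat5b. In stimulated IFT20-KO cells, Stat6 (69.3 CPM, 67.7 to 70.9) and Stat3 (67.1 CPM, 65.6 to 68.7) had overlapping intervals, and these were the only neighbours in any of the 3 orders that counting error did not separate. Together the 6 genes took 389 CPM in unstimulated WT, 259 CPM in stimulated WT and 247 CPM in IFT20-KO cells. A UMI counts a molecule irrespective of transcript length. Capture and the assignment of reads can still differ between genes, as where Stat5a and Stat5b share sequence. The order is therefore that of the UMIs counted, and how far the order of mRNA molecules differs from it was not measured.

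**Figure D1:**
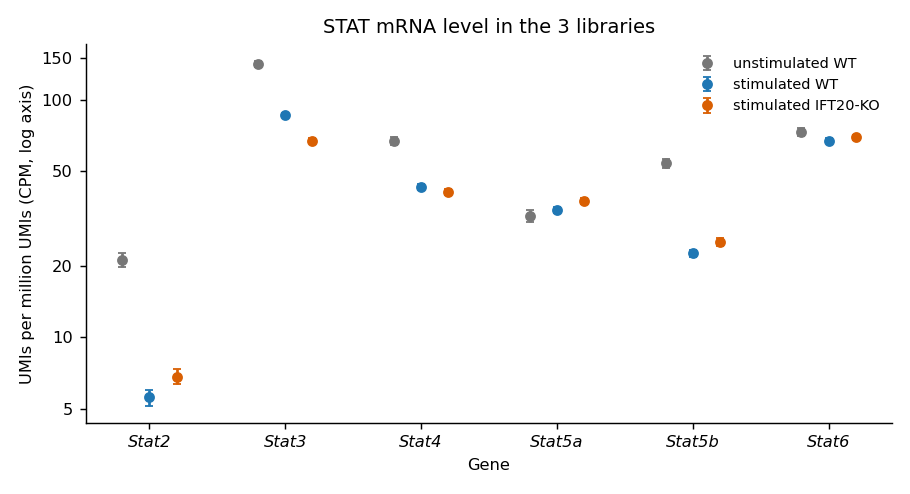
mRNA level of the 6 STAT genes in CPM (log axis) before stimulation in WT cells and after it in WT and in IFT20-KO cells; each point is 1 library and bars are exact Poisson 95% intervals. Stat2, Stat3, Stat4 and Stat5b were lower in both stimulated libraries than in unstimulated cells. The 3 points of Stat5a lay close to each other, as did the 3 points of Stat6.

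The comparison of stimulated with unstimulated WT cells asks how STAT mRNA differed between resting cells and cells activated through the T cell receptor and CD28. The unstimulated library is labelled 0 h and the stimulated one 24 h. The antibodies and 24 h of culture therefore cannot be told apart, and "with stimulation" stands for both throughout. Over all cells Stat2 and Stat5b were lower by at least 2-fold, and no STAT gene was higher by that much. Among cells of 4000 to 8000 UMIs (4978 unstimulated and 546 stimulated), neither passed 2-fold. By bands of UMIs with more than 4 unstimulated cells, both passed it under 2000 UMIs and from 10000 to 20000 UMIs. Only Stat2 did from 5000 to 10000 UMIs (log2 ratio -1.02), and neither did from 2000 to 5000 UMIs. Over all 13297 genes with at least 10 UMIs, 23.0% were lower by at least 2-fold and 19.3% were higher. The median log2 ratio of the 6 genes was -0.68, against -0.089 over all genes.

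Stat2 had the lowest ratio over all cells. It stood at 21.2 CPM in unstimulated WT, 5.59 CPM in stimulated WT and 6.85 CPM in stimulated IFT20-KO cells. Both stimulated libraries were low, and the log2 ratio of stimulated to unstimulated WT was -1.92 (-2.07 to -1.77). Stat5b, the STAT5 gene with more UMIs in resting cells, followed with 54.0, 22.5 and 25.2 CPM in the same order of libraries. Its log2 ratio was -1.26 (-1.34 to -1.18). Stat5a did not share this pattern. It stood at 32.3, 34.4 and 37.4 CPM, and its log2 ratio of 0.089 had an interval that included 0 (-0.0048 to 0.18). Among cells of 4000 to 8000 UMIs the log2 ratios were -0.85 for Stat2, -0.89 for Stat5b and 0.35 for Stat5a, so that Stat2 was not the lowest there. From 2000 to 5000 UMIs they were -0.56 for Stat2, -0.85 for Stat5b and 0.63 for Stat5a. In that band the median of mitochondrial UMIs was 2.27% in unstimulated and 10.4% in stimulated WT cells, so that cells of unlike quality were compared. From 5000 to 10000 UMIs the ratios were -1.02 (-1.37 to -0.67) for Stat2 and -0.88 for Stat5b. From 10000 to 20000 UMIs, with 173 unstimulated cells, they were -1.80 for Stat2 and -1.45 for Stat5b. Under 2000 UMIs they were -1.32 and -1.16. Stat2 had the lowest ratio of the 6 genes under 2000, from 5000 to 10000 and from 10000 to 20000 UMIs. From 2000 to 5000 UMIs Stat5b had the lowest.

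Stat3 and Stat4 lay between these genes. Stat3 stood at 141.1, 86.1 and 67.1 CPM, and its log2 ratio by stimulation was -0.71 (-0.76 to -0.67). Stat4, the IL-12 signal transducer, stood at 67.2, 43.0 and 41.0 CPM with a log2 ratio of -0.64 (-0.71 to -0.57). Both were lower in the stimulated libraries over all cells, within the 2-fold limit, and at 4000 to 8000 UMIs the ratios were -0.34 for Stat3 and -0.35 for Stat4. In cells of 2000 to 5000 UMIs, Stat4 was instead higher after stimulation, at 82.3 CPM against 65.9 CPM (0.32, 0.10 to 0.53). In this band the stimulated cells had the higher median of mitochondrial UMIs, 10.4% against 2.27%. Stat4 was lower after stimulation in the bands on either side, at -0.96 under 2000 UMIs and -0.71 from 5000 to 10000 UMIs. Stat6, the IL-4 signal transducer, stood at 73.1, 67.2 and 69.3 CPM, and its log2 ratio of -0.12 (-0.19 to -0.060) was close to the median of all genes and did not keep its sign in all settings.

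These ratios are relative to all mRNA of a library, and the stimulated WT cells carried more UMIs each. Counted per cell and without scaling, Stat2 was the only member below its unstimulated level (0.0980 UMIs per cell in unstimulated and 0.0660 in stimulated WT cells). Stat5a stood at 0.150 and 0.406 UMIs per cell, and Stat6 at 0.338 and 0.793. Stat3 stood at 0.652 and 1.02, Stat4 at 0.311 and 0.508, and Stat5b, nearly level on this scale, at 0.250 and 0.266. UMIs per cell hold both the RNA content of a cell and the depth of its sequencing, which cannot be told apart here.

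The share of cells with at least 1 UMI moved with depth in the same way. Stat6, for example, was seen in 27.9% of unstimulated and 49.5% of stimulated WT cells. When every cell was thinned to 1400 UMIs, leaving out 801 unstimulated and 421 stimulated WT cells below that depth and no IFT20-KO cell, the Stat6 shares were 9.71% in unstimulated WT, 9.41% in stimulated WT and 9.98% in IFT20-KO cells. At this depth Stat3 was seen in 17.6%, 11.9% and 9.33% of cells, against 44.3%, 54.3% and 35.1% without thinning. Stat2 was seen in 2.80%, 1.21% and 1.54% of thinned cells, against 8.79%, 6.13% and 5.00% without thinning. No cell type in the sort is known to lack these genes, so that a background share from free RNA could not be measured.

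The make-up of the STAT messages within a library needs no scaling between libraries. Stat5a was 37.5% of the UMIs of Stat5a and Stat5b in unstimulated WT cells (interval 35.8% to 39.2%), 60.4% in stimulated WT cells (59.2% to 61.6%) and 59.8% in stimulated IFT20-KO cells (58.6% to 61.0%). The STAT5 gene with more UMIs thus differed between unstimulated and stimulated cells and was the same in both genotypes. In every band of UMIs per barcode with more than 4 cells, the share was below 50% in unstimulated cells (28.5% to 38.4%) and above it in stimulated WT cells (55.8% to 63.2%) and IFT20-KO cells (55.6% to 61.5%). Stat6 made up 18.8%, 26.0% and 28.1% of the UMIs of the 6 genes in the 3 libraries, and Stat3 36.3%, 33.3% and 27.2%.

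**Figure D2:**
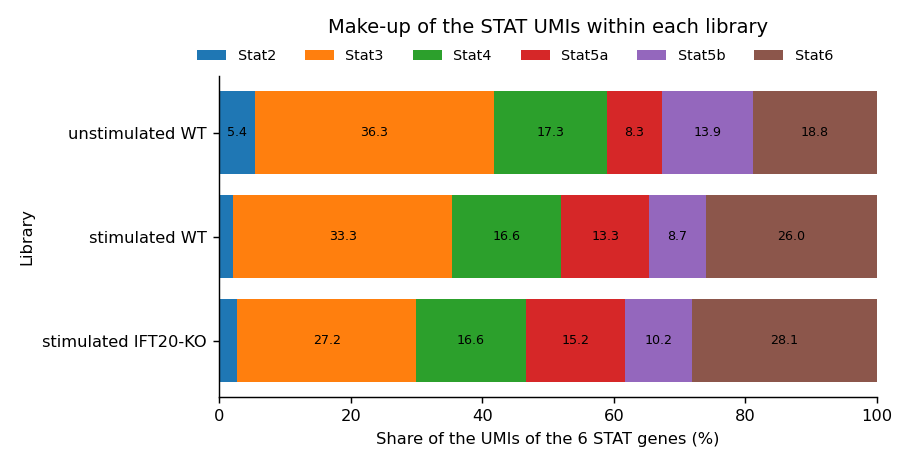
Share of each gene in the UMIs of the 6 STAT genes (%), 1 bar per library, with shares above 4% printed. Stat5a was larger than Stat5b in both stimulated libraries and smaller in unstimulated WT cells, and the Stat3 share was 33.3% in stimulated WT and 27.2% in stimulated IFT20-KO cells.

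The comparison of stimulated IFT20-KO with stimulated WT cells asks whether STAT mRNA differed between activated cells with and without IFT20, an intraflagellar transport protein. It shares the stimulated WT library with the comparison above. Stat3 was at least 20% lower, and no STAT gene was at least 25% higher, which is the same ratio turned over. Over all 13504 genes tested, 6.3% were at least 20% lower and 30.1% at least 25% higher. The median log2 ratio of all genes was 0.14, so that a member at 0 on this scale lay below the typical gene.

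Stat3 had a log2 ratio of -0.36 (-0.40 to -0.31), which is -0.49 after subtraction of that median. The other members lay within these limits. Stat2 had a log2 ratio of 0.29 (0.14 to 0.45), Stat5b of 0.16 (0.083 to 0.24) and Stat5a of 0.12 (0.059 to 0.19). Stat6 had a ratio of 0.045 with an interval that included 0 (-0.0013 to 0.091), and Stat4 a ratio of -0.068 (-0.13 to -0.0090). Set against that median, Stat2 stood at 0.16, Stat5b at 0.024, Stat5a at -0.014, Stat6 at -0.092 and Stat4 at -0.20.

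**Figure D3:**
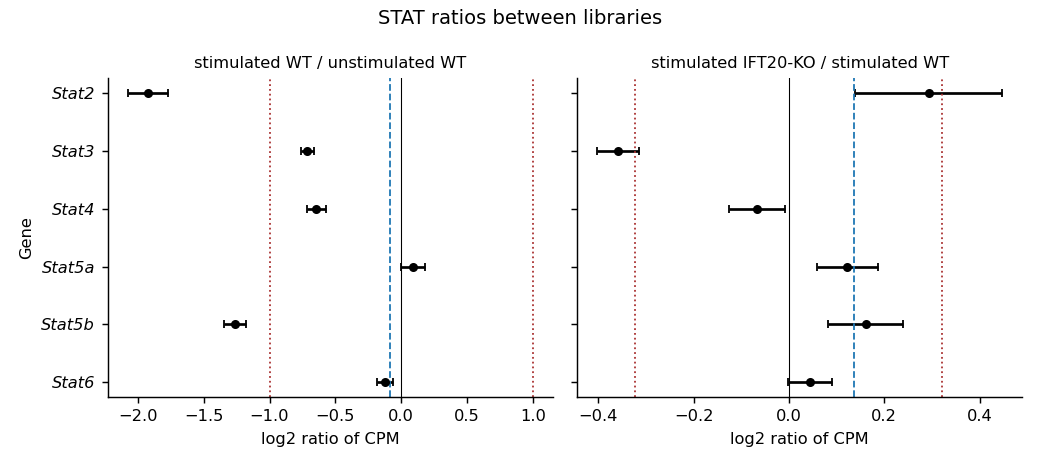
log2 ratio of CPM for each STAT gene, stimulated over unstimulated WT on the left and stimulated IFT20-KO over stimulated WT on the right, with exact binomial 95% intervals; dotted lines mark 2-fold (left) and the limits of 20% lower and 25% higher (right), and the dashed line marks the median of all genes. Stat2 and Stat5b lay past 2-fold on the left and Stat3 past the limit on the right.

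The libraries differed in how many cells with few UMIs they held, and STAT levels differed with it. The IFT20-KO library held 5679 cells with 2000 to 5000 UMIs, with a median of 5.75% mitochondrial UMIs, whereas stimulated WT held 973 such cells with a median of 10.4%. In both libraries cells of 10000 to 20000 UMIs had lower medians, 1.04% in IFT20-KO and 1.24% in stimulated WT. In IFT20-KO cells, Stat2 stood at 16.2 CPM in cells of 2000 to 5000 UMIs and at 4.42 CPM in cells of 10000 to 20000 UMIs. Stat4 stood at 65.6 and 36.3 CPM in the same bands, and Stat5a at 56.8 and 34.0 CPM. Stat6 differed less, at 83.6 and 66.6 CPM.

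Among cells with at least 5000 UMIs (3143 unstimulated WT, 7516 stimulated WT and 6962 IFT20-KO cells, a choice made after seeing the data), Stat3 still stood at 85.0 CPM in stimulated WT and 65.8 CPM in IFT20-KO cells, a log2 ratio of -0.37 (-0.42 to -0.32). Stat2 stood at 4.94 and 4.93 CPM, with a log2 ratio of -0.0020 (-0.19 to 0.18). Stat5a and Stat5b had log2 ratios of 0.013 (-0.056 to 0.083) and 0.075 (-0.010 to 0.16), and the intervals of all 3 genes included 0. In the same cells Stat4 had a log2 ratio of -0.18 (-0.24 to -0.11) and Stat6 of 0.00097 (-0.049 to 0.051). The limit of 5000 UMIs does not match the depth of the libraries. Among cells of at least 5000 UMIs the stimulation ratios were -1.83 for Stat2, -1.21 for Stat5b and -0.68 for Stat3. They were -0.60 for Stat4, 0.13 for Stat5a and 0.0061 for Stat6. In the band of 20000 UMIs and over alone, Stat5b had a genotype log2 ratio of 0.24 (0.032 to 0.45).

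Stat3 was lower in IFT20-KO than in stimulated WT cells in each of 5 bands of UMIs per barcode. It stood at 120.2 CPM in stimulated WT and 71.5 CPM in IFT20-KO cells under 2000 UMIs, at 102.3 and 74.4 CPM from 2000 to 5000 UMIs, and at 101.0 and 76.7 CPM from 5000 to 10000 UMIs. From 10000 to 20000 UMIs the levels were 85.8 and 63.4 CPM, and above that 77.4 and 62.3 CPM. The intervals of the 5 log2 ratios, which ran from -0.75 to -0.31, all left out 0. For no other member did all 5 intervals leave out 0. Stat4 left out 0 in 4 of the 5 bands, each time with the lower level in IFT20-KO cells.

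**Figure D4:**
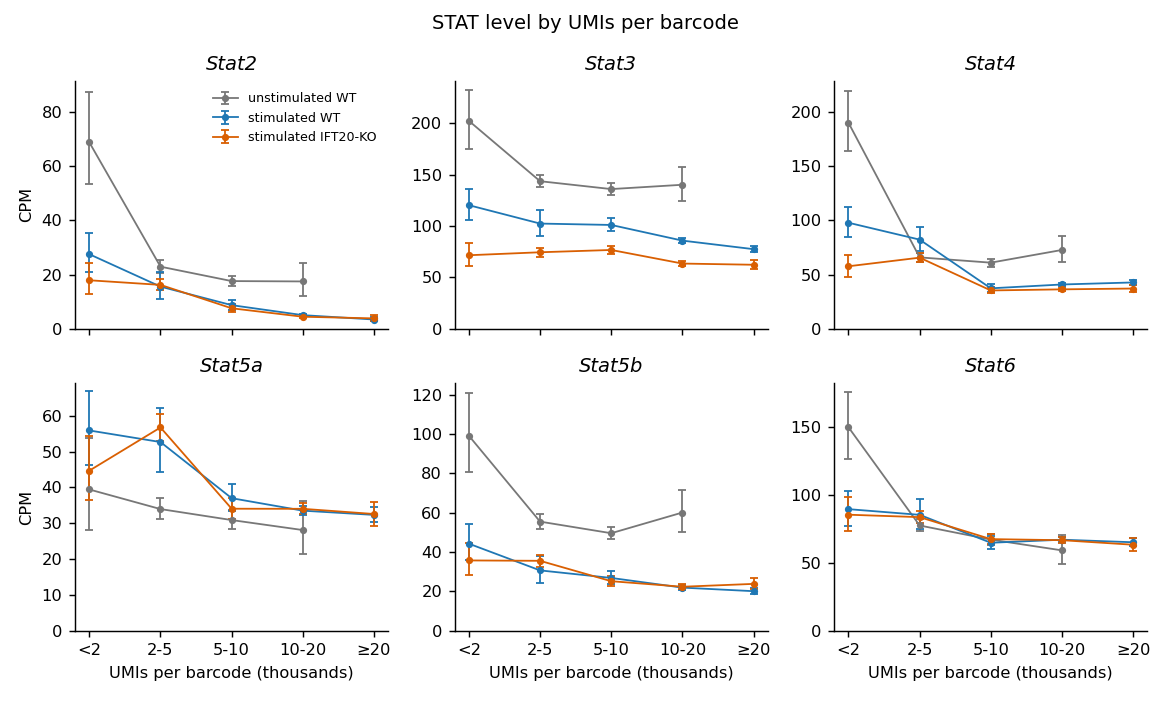
Level of each STAT gene in CPM by UMIs per barcode (axis in units of 1000 UMIs), 1 panel per gene and 1 line per library, for bands of at least 20 cells; bars are exact Poisson 95% intervals. The Stat3 lines of stimulated WT and IFT20-KO cells stayed apart in every band, whereas the ratio of Stat6 between these libraries had an interval that included 0 in each.

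Within each library, cells were set apart by UMIs of marker genes, among cells that reached their library's median UMIs divided by 3 (1542, 4056 and 1672 UMIs in the order of libraries used above). In all, 90 ratios were computed in this way (6 genes, 15 gated sets). Such intervals treat each UMI as independent, and cells of a library are not replicates.

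In both WT libraries Stat2 was higher in cells with interferon-induced genes, defined by at least 3 UMIs of Ifit1, Ifit3, Isg15, Rsad2 and Usp18 in sum. In unstimulated WT cells it stood at 56.6 CPM in the 252 cells inside and 18.5 CPM in the 6944 cells outside this set, a log2 ratio of 1.61 (1.26 to 1.95). In stimulated WT cells it stood at 12.2 CPM in 160 cells and 4.78 CPM in the others (1.36, 0.78 to 1.89). The IFT20-KO library had 40 such cells of 13455, with 3 Stat2 UMIs, too few for a comparison. Median UMIs per cell were 5072.5 inside and 4793 outside in unstimulated WT. Stat5a stood at 58.3 CPM inside and 33.0 CPM outside in stimulated WT cells (0.82, 0.57 to 1.06), but at 31.5 and 32.2 CPM in unstimulated WT cells, where the interval of the ratio included 0. Stat5b stood at 31.4 and 21.8 CPM in stimulated WT cells (0.53, 0.18 to 0.86). Stat4, whose second start also holds the response element core, stood at 35.5 and 41.1 CPM in stimulated WT cells with an interval that included 0 (-0.54 to 0.093). In unstimulated WT cells it stood at 73.4 CPM inside and 63.5 CPM outside, also with an interval that included 0 (-0.088 to 0.49).

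Stat3 was higher in stimulated cells with a Tbx21 UMI, the gene of the Th1 factor T-bet, than in those without. In stimulated WT it stood at 112.8 CPM in the 834 cells with Tbx21 and 81.3 CPM in the 6768 cells without (log2 ratio 0.47, 0.39 to 0.55). In IFT20-KO it stood at 84.0 CPM in 129 cells and 66.8 CPM in 13326 cells (0.33, 0.062 to 0.59). In stimulated WT cells Stat3 was also high in 48 cells with an Il7r but no Il2ra UMI, at 115.9 CPM (0.45, 0.059 to 0.81). These cells had a lower median of UMIs than the others, 10280 against 13972. In 139 such IFT20-KO cells the ratio was 0.27 with an interval that included 0 (-0.15 to 0.65). In stimulated WT cells Stat3 stood at 100.8 CPM inside and 84.8 CPM outside the interferon set (0.25, 0.061 to 0.43). The intervals of unstimulated WT (-0.14 to 0.27) and IFT20-KO cells (-0.17 to 0.74) included 0. Cells with Tbx21 were fewer in the IFT20-KO library, whose cells also held fewer UMIs. Without any cell that had a Tbx21 UMI, which was chosen after seeing the data, the log2 ratio of Stat3 between genotypes was -0.30, just inside the limit of 20% lower. Stat4, which IL-12 uses to raise Tbx21, stood at 37.5 CPM with and 41.5 CPM without Tbx21 in stimulated WT cells (-0.14, -0.28 to -0.013).

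Both STAT5 genes were higher in unstimulated cells with Foxp3, the gene of the regulatory T cell factor. Stat5a stood at 44.2 CPM in 322 cells with Foxp3 and 31.6 CPM in 6874 cells without (0.49, 0.12 to 0.83), and Stat5b at 71.5 and 52.0 CPM (0.46, 0.18 to 0.73). Stat2 was also higher there, at 27.9 and 19.6 CPM (0.51, 0.043 to 0.94). Stat3, Stat4 and Stat6 had intervals that included 0. In stimulated cells, Il2ra, which STAT5 induces, did not set apart the STAT5 genes. Stat5a stood at 33.9 CPM in stimulated WT cells with an Il2ra UMI and 31.9 CPM in those without, and Stat5b at 22.2 and 21.0 CPM, with intervals that included 0.

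Cycling cells were those with at least 2 UMIs of Mki67 and Top2a in sum. Stat6 stood at 57.3 CPM in 788 cycling and 67.6 CPM in other stimulated WT cells (-0.24, -0.34 to -0.13), and at 57.6 and 71.3 CPM in IFT20-KO cells (-0.31, -0.41 to -0.21). Stat3 had log2 ratios of -0.17 and -0.20 in the 2 libraries and Stat5a of -0.22 in both, all with intervals below 0. In stimulated WT cells Stat4 (-0.18, -0.31 to -0.051) and Stat5b (-0.19, -0.37 to -0.012) were lower to a similar degree. In IFT20-KO cells their intervals included 0 (-0.23 to 0.020 for Stat4 and -0.12 to 0.19 for Stat5b). Stat2 had ratios of 0.14 and 0.24 with intervals that included 0. In cells that had made Il2 mRNA, Stat2 was lower in both genotypes, at 3.39 CPM against 5.37 CPM in stimulated WT (-0.66, -1.02 to -0.32) and 5.10 against 7.14 CPM in IFT20-KO (-0.48, -0.81 to -0.17). These cells had a higher median of UMIs, as did cycling cells, and Stat2 was lower in cells with more UMIs throughout. The part of depth in these ratios was not tested.

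**Figure D5:**
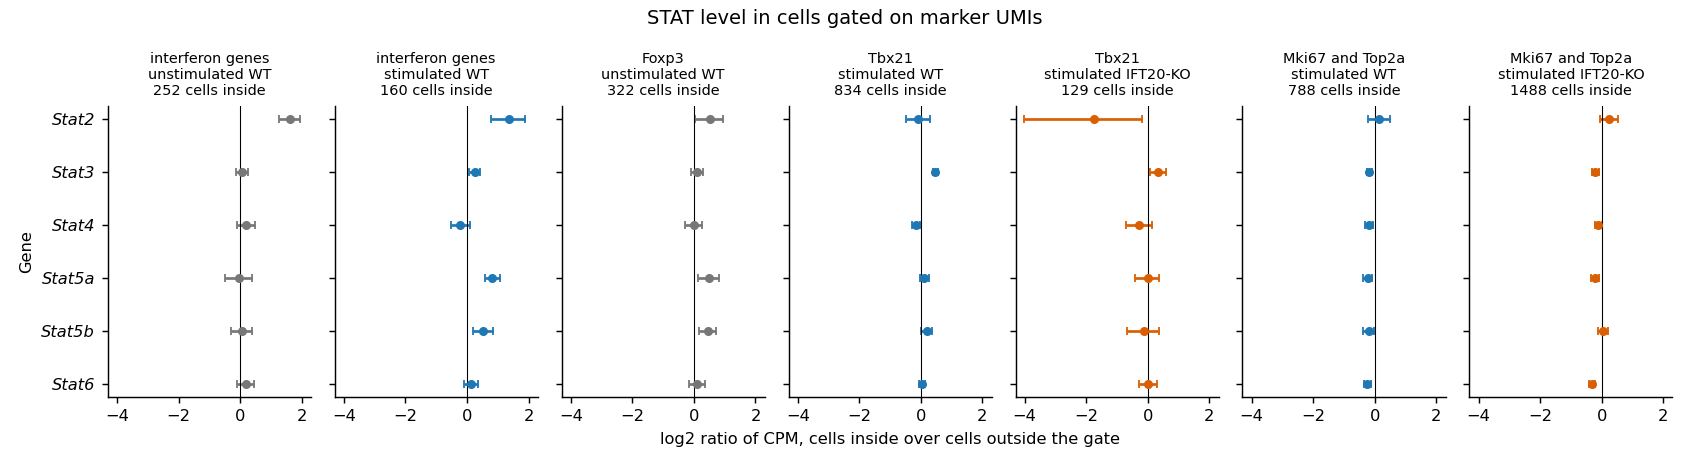
log2 ratio of CPM of each STAT gene between cells inside and outside 7 sets of cells defined by marker UMIs, with exact binomial 95% intervals; each panel names the markers, the library and the number of cells inside. Stat2 lay to the right for interferon-induced genes in both WT libraries, which are the only libraries shown for that set. Stat3 lay to the right for Tbx21 in both genotypes. For cycling cells Stat3, Stat5a and Stat6 lay to the left in both genotypes, and Stat4 and Stat5b also did in stimulated WT cells.

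The genes around the STAT proteins were described with lists of pathway members written from general knowledge, some of which overlap. Of 74 pathway genes with at least 10 UMIs, 15 were higher and 32 lower by at least 2-fold in stimulated than in unstimulated WT cells. Over all genes 19.3% were higher and 23.0% lower. The median log2 ratio was -0.51 for the pathway genes, against -0.089 over all genes. Between stimulated IFT20-KO and WT cells, 12 were at least 25% higher and 21 at least 20% lower, against 30.1% and 6.3% of all genes. The median was -0.011 against 0.14. These shares over all genes also apply to the counts of each list below. Among cells with at least 5000 UMIs, the genotype counts were 4 higher and 22 lower of 73, with a median of -0.092 against 0.040, and 14.2% of all genes were higher and 7.91% lower by these limits.

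Of 6 ligand genes tested, 5 were higher and none lower by at least 2-fold with stimulation, against 19.3% and 23.0% of all genes. Il2, the ligand whose receptor acts through STAT5, stood at 0.46 CPM in unstimulated WT, 120.7 CPM in stimulated WT and 68.7 CPM in IFT20-KO cells. Ifng stood at 0.22, 2.97 and 0.29 CPM and Il4, the STAT6 ligand, at 0.081, 1.24 and 0.13 CPM. These messages were rare, seen in 0.36% and 0.16% of stimulated WT cells, with 347 and 145 UMIs. Between genotypes 6 of 8 ligand genes were at least 20% lower and Il13 was higher, from few UMIs.

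Receptor chains were mostly lower with stimulation, 11 of 18 by at least 2-fold, and 4 were higher, against 23.0% and 19.3% of all genes. Il7r, which feeds STAT5 in resting cells, stood at 476, 5.45 and 5.94 CPM, and Il6ra, which feeds STAT3, at 210, 29.9 and 35.0 CPM. Il2ra stood at 15.03, 185 and 202 CPM and Il12rb1, which feeds STAT4, at 1.43, 52.6 and 37.7 CPM. Between genotypes 4 of 18 were higher and 3 lower past the same limits, against 30.1% and 6.3% of all genes. Il27ra was highest of them at 63.1 CPM in stimulated WT and 95.3 CPM in IFT20-KO cells. Among cells with at least 5000 UMIs none was higher and 3 were lower, against 14.2% and 7.91% of all genes.

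None of the 4 Janus kinase genes was past 2-fold with stimulation. Jak1, the most abundant, stood at 344, 177 and 212 CPM, and Jak2 at 15.2, 23.0 and 24.3 CPM. Tyk2, which serves the interferon and IL-12 receptors, stood at 18.4, 12.9 and 16.2 CPM and was the only kinase at least 25% higher between genotypes. No kinase gene was past the limits among cells with at least 5000 UMIs.

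Of 17 inhibitor genes, 2 were higher and 4 lower by at least 2-fold with stimulation, against 19.3% and 23.0% of all genes. Cish, a target of STAT5 that restrains it, stood at 20.2, 74.9 and 72.7 CPM, whereas Socs3, which restrains STAT3 signals, stood at 75.9, 8.16 and 7.95 CPM. Usp18, which damps the type I interferon receptor, stood at 25.1, 2.96 and 1.87 CPM. Between genotypes 2 were higher and 2 lower past the limits, among them Socs1 at 91.7 CPM in stimulated WT and 72.2 CPM in IFT20-KO cells. Among the 5 partners and coactivators, 4 were lower with stimulation and none higher, against 23.0% and 19.3% of all genes. Irf9, the partner of STAT2, stood at 62.9, 23.4 and 17.2 CPM, and Nmi, a STAT-binding protein, at 83.0, 37.2 and 27.6 CPM. Between genotypes Irf9 and Nmi were the 2 at least 20% lower, and Ep300, an acetyltransferase coactivator, the 1 at least 25% higher. Among cells with at least 5000 UMIs, no inhibitor and no partner was at least 25% higher, and 2 of each list were lower.

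Most targets of STAT2 were lower in stimulated cells. Of 9 interferon-response targets, 8 were lower by at least 2-fold with stimulation and none higher, against 23.0% and 19.3% of all genes. Irf7, the amplifier of the interferon response, stood at 58.2, 1.08 and 0.53 CPM and Isg15, a ubiquitin-like modifier, at 52.6, 10.4 and 4.22 CPM. Between genotypes 5 of 7 were at least 20% lower and 1 at least 25% higher, also among cells with at least 5000 UMIs, where Stat2 itself stood at 4.94 and 4.93 CPM. Bst2 was the member that stayed within 2-fold, at 104.6, 125.1 and 106.1 CPM.

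Target lists of the other STAT proteins were mixed. Over all genes 19.3% were higher and 23.0% lower with stimulation, and 30.1% were higher and 6.3% lower between genotypes. Of 6 STAT3 targets, Socs3 was the only 1 lower by at least 2-fold with stimulation, and none was at least 20% lower between genotypes. Of 6 STAT4 targets, 3 were higher and 2 lower with stimulation, and 3 were lower and none higher between genotypes. Tbx21 stood at 0.65, 13.2 and 1.45 CPM, a larger difference between genotypes than that of Stat4. Among cells with at least 5000 UMIs, 5 of the 6 were at least 20% lower between genotypes, against 7.91% of all genes. Of these, Il18r1 had 25 UMIs in IFT20-KO and 49 in stimulated WT cells, and Il18rap had 5 and 9. The intervals of both ratios included 0. Of 8 STAT5 targets, 4 were higher and 3 lower with stimulation, with Pim2 at 41.3, 178 and 173 CPM, and 1 was higher and 1 lower between genotypes. Of 4 STAT6 targets tested, 2 were higher and 2 lower with stimulation, and of 5 tested between genotypes 1 was higher and 3 lower, with Gata3, the Th2 factor, at 58.7, 13.9 and 10.1 CPM.

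Of 7806 genes with at least 10 CPM in a library and 10 UMIs in each, those with the most similar log2 levels over the 3 libraries, by Euclidean distance, were Ap3m2 and Galnt6 for Stat2, Mafk and Ier3ip1 for Stat3, Unc13d and Zfp120 for Stat4, Fuca1 and Zrsr2 for Stat5a, Esyt1 and Vopp1 for Stat5b, and Acot8 and Vps72 for Stat6. Distances ran from 0.0056 for Fuca1 to 0.050 for Ier3ip1. Stat3 had the farthest nearest gene of the 6, Mafk at a distance of 0.035 with 11.7, 7.32 and 5.78 CPM. The likeness rests on 3 values per gene, and no member was among the nearest genes of another.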

How the data were processed

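Per the file headers, the deposited matrices hold UMI counts per gene and barcode made by the authors with Cell Ranger 3.1.0, on mm10 per the labels. The groups were taken from the sample titles. Barcodes were kept by the limits of the study methods (above 200 genes, below 15% of UMIs mitochondrial), and counts were summed per library and divided by total UMIs (CPM). Ratios were formed for genes whose UMIs summed to 10 or more over the pair, a sum of 0 being set to 3 counts, with exact Poisson, binomial or Clopper-Pearson 95% intervals that cover counting error only. Totals of 37133949, 116979076 and 106435143 UMIs set that precision. With 1 library per group no test was run. The members and lists were chosen with earlier results of these data known. Genes were named by a fixed rule (the STAT genes, Ift20, the extremes of each pathway list, the 2 nearest genes), and Nab2, Ighm, Cd8b1, Cd79a, Bst2 and further pathway genes were chosen after their values were seen. Scripts were tested on simulated data. Python 3.11.15, numpy 2.4.6, scipy 1.17.1 and pandas 2.3.3 were used. Some genes of the lists are not reported here.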

Additional observations from a re-analysis of the deposited data

How the results depend on the processing

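The 9 alternatives planned and 2 added after seeing the data changed scaling, pooling or the cells kept. The 2 STAT genes lower by 2-fold with stimulation became 0 in UMIs per cell, where 2 were higher, and 0 among cells of 4000 to 8000 UMIs. The 1 gene at least 20% lower between genotypes became 6 in UMIs per cell, 2 at 4000 to 8000 UMIs and 0 without cells with Tbx21. The count at least 25% higher became 1 (Stat2) with over 1000 genes and under 10% mitochondrial UMIs, and 1 above the low-UMI limit of each library. UMIs per cell turned the stimulation log2 ratios of Stat3 to 0.64, Stat4 to 0.71, Stat5b to 0.093 and Stat6 to 1.23. The same setting turned the genotype ratios of Stat2 to -0.33, Stat5a to -0.50, Stat5b to -0.47 and Stat6 to -0.58. Median-ratio scaling turned Stat6 with stimulation to 0.0097 and, between genotypes, Stat5a to -0.037 and Stat6 to -0.12. It moved the median of all genes to 0.044 with stimulation and -0.024 between genotypes. Stat5a between genotypes was -0.031 at 4000 to 8000 UMIs. With at least 5000 UMIs, Stat6 with stimulation was 0.0061 and Stat2 between genotypes -0.0020. The causes were not tested. Stat3 between genotypes kept its sign in all 11 alternatives, from -0.99 to -0.30. No paired analysis was possible because each group had 1 library. Depth limits Stat2 most, with 654 to 787 UMIs per library.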
